A study of Mus musculus with 5 samples.

Results

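The tripartite motif (TRIM) family was examined as all probe sets of the deposited array table whose only gene symbol in the platform annotation starts with Trim and a digit. They were 111 of 45101 probe sets and stood for 58 of 18193 named genes. Of the 58 genes, 13 with 24 probe sets are known to be induced by interferon, and the other 45 have 87 probe sets. A further 5 probe sets pair a Trim symbol with another symbol and are no members by this rule.

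The arrays compare mouse tumor-specific CD4+ T cells activated in the animal (n = 3) with their naive counterparts (n = 2), and the series title places the activated cells in the Th1 class. All cells carried a transgenic T cell receptor on a SCID background, were of the Balb/c strain and came from adults of 7 to 12 weeks. For the activated group, 100000 cells of the MOPC315 myeloma in 250 µl of Matrigel were put under the skin of the flank, and draining axillary lymph nodes were pooled on day 8 from a stated 12 to 15 mice. CD4+ cells positive for GB113 were then sorted at a purity of at least 95%, in 3 independent experiments. The naive group came from pooled lymph nodes of naive mice of the same transgenic kind in 2 independent experiments; the treatment field of their labels repeats the tumor challenge, which the design text does not give for them. Pooling leaves no measure of the spread between mice, and no group given Matrigel alone was analysed here.

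TRIM proteins carry, in most members, a RING finger, 1 or 2 B-boxes and a coiled coil, followed by a variable C-terminal part that sorts the family into classes. The RING finger makes most of them ubiquitin ligases. Many members with a B30.2 (SPRY) domain act in antiviral defence, as retroviral restriction factors or as ligases on the pathways of RNA and DNA sensors, and a subset is switched on by type I interferon through interferon-stimulated response elements. Members of other classes act on chromatin, microtubules, centrosomes or muscle filaments.

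The interferon-stimulated response element is shown first because its core was found near the start of most interferon-induced members and of few others. RefSeq promoter windows of 300 bases (250 before and 50 after a transcription start, build GRCm38.p6) were searched on both strands for its core, GAAA, any 2 bases and GAAA again. At least 1 window held it for 8 of 12 interferon-induced members with a window and for 1 of 35 other members, Trim2, against 3.99% of all 27025 genes and 3.44% of all 32851 windows. The gamma-activated site TTCNNNGAA was in no window of the 12 interferon-induced members and in those of 4 of the 35 others, against 9.55% of all genes. Interferon-induced members without the first motif in these windows were Trim6, Trim25, Trim56 and Trim69. The 30 bases around each match in the interferon-induced members are given below 5′ to 3′ on the strand of the gene, with the matched bases in capitals.
Trim21 (chr7:102565447-102565476, minus strand): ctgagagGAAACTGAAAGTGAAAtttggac
Trim34a (chr7:104244457-104244486, plus strand): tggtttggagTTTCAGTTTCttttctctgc
Trim5 (chr7:104288136-104288165, minus strand): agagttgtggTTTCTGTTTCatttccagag
Trim12a (chr7:104315466-104315495, minus strand): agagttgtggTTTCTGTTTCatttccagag
Trim12c (chr7:104353359-104353388, minus strand): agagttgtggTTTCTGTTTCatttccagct
Trim30a, one start (chr7:104446104-104446133, minus strand): ttgtttttagTTTCTTTTTCtcagttcctg
Trim30a, another start (chr7:104465210-104465239, minus strand): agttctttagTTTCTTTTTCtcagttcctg
Trim30d (chr7:104507871-104507900, minus strand): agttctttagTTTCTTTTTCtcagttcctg
Trim26 (chr17:36836979-36837008, plus strand): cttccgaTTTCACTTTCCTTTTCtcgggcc

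In Trim21 and Trim26 a pair of overlapping matches makes up the capitals. The Trim5 and Trim12a stretches are identical over 30 bases and differ from that of Trim12c at the end, with 28 of 30 bases shared. One of the Trim30a stretches is identical to that of Trim30d over 30 bases, and the other shares 26 of 30 bases with it. The capitals begin 49 bases before the start in Trim5, 41 in Trim30d and 29 in Trim12c, but 160 in Trim26. In the Trim30a stretch identical to that of Trim30d, listed as another start, they begin 36 bases before it. They lie after the start in Trim21, Trim34a and Trim12a and in the Trim30a stretch listed as one start. Such a match is a stretch of letters and was not tested as a binding site. Trim6, Trim34a, Trim5, Trim12a, Trim12c, Trim30a and Trim30d lie close together on chromosome 7 with Trim34b, Trim30b and Trim30c. These close relatives can share probe sequence, so a probe set named for one of them may also read another.

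Each probe set has an intensity on a linear scale, fitted as log2(intensity + 16), which understates the change of dim genes. A gene was tested on its brightest probe set if that lay above the 40th percentile of the array (10.6 to 13.4) on at least 2 arrays. This left 39 of the 58 TRIM genes; none of them passed through 1 group only, and 29 were above it on all 5 arrays. "Called" means that limma gave a Benjamini-Hochberg adjusted p under 0.05 over all 12860 genes tested. On 5 arrays this has 3 residual degrees of freedom, so the number of arrays limits the precision of every value.

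All 7 T cell markers on the array were far above the filter on all 5 arrays, from 275.1 to 4906. Cd3e, Cd3d, Cd3g, Cd28 and Cd4 were not called, while Cd5 rose by 1.85 and Zap70 by 0.71 (limma adjusted p = 9.1e-05 and 0.0187). By summed markers, activated replicate 1 carried more transcripts of other cells. Single markers did not all follow: Cd14 and Adgre1 were highest on activated replicate 3, Zbtb46 on activated replicate 2, and Xcr1 and Mpo on naive arrays. The 9 myeloid markers summed to 3665 on activated replicate 1, with Lyz2 at 1953.9. Their sum was 897 on activated replicate 3 and 142.2 to 394.1 on the remaining arrays. On activated replicate 1 the 9 dendritic cell markers summed to 3006 against 163.5 to 371.1, and the 5 neutrophil markers to 926.5 against 47.4 to 90.5. The summed 5 NK cell markers were 3860 there and 857 to 1117 elsewhere. Of these, Gzma was at 2489.5 there against 142 to 627.5, and Ncr1, the defining NK receptor, at 265.3 against 5.6 to 11.2. Klrd1 did not differ in this way, at 404.9 against 276.2 to 434.2, and Klra8 was at most at 3.5. Eomes, at 696.4, 281.6 and 440.9 against 154.9 and 43.4, rose by 2.19 (limma adjusted p = 0.00860). The B cell marker Cd79a was at most at 14.7. The 3 erythroid markers summed to 39.5 on activated replicate 1 and to 7.3 to 22.9 on the other arrays. Of these, Hba-a1 was at most at 24.3, Epb42 at 14.6 and Alas2 at 3.6. Of the CD8 T cell markers, Cd8b1 had 326.5, 246.8 and 275 against 797.6 and 995.7 and fell by 1.61 (limma adjusted p = 2.8e-04), while Cd8a, at 79.2, 24.4 and 18.7 against 54 and 44.6, overlapped between the groups and was not called; their sum was 271.2 to 405.7 against 851.6 and 1040. The 6 B cell markers summed to 120.5 to 161.8 on activated and to 72.4 and 75.6 on naive arrays, of which Cd22 rose by 1.21 (limma adjusted p = 0.00858). The part of these transcripts in the TRIM values was not tested. The bioC hybridisation control was higher on activated replicates 1 and 2 and naive replicate 1 (log2 of 9.31 to 9.48) than on activated replicate 3 and naive replicate 2 (7.4 and 7.69). The labels do not say whether this is a batch, and both sides hold both groups, so changes are also given within each side. The listed mitosis genes were higher in activated cells for 19 of 19 tested, where 6.37% of all tested genes rose. Mki67 led at a log2 fold change of 3.93, with Ube2c at 3.72 (limma adjusted p = 7.3e-06 and 6.1e-06). This list was chosen with earlier results of these data known, so its count is a description.

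Activated cells had less of several interferon-induced TRIM transcripts, while most of the rest of the family did not pass the test in either direction. Of 39 tested TRIM genes, 7 fell and 1 rose, where 4.14% of all tested genes fell and 6.37% rose (10.5% in either direction). Trim34a, Trim56, Trim12c, Trim26 and Trim21 of the interferon-induced list fell, as did Trim65 and Trim39 among the others. Trim37, a centrosomal ubiquitin ligase, was the gene that rose. In bulk samples, fewer cells of a type and less RNA per cell cannot be told apart. Without activated replicate 1, the array with more transcripts of other cells, 4 fell and 2 rose. The count of falls ranged from 1 to 5 over the 5 fits that each left out an array. Median centring ended the calls of Trim12c, Trim21, Trim26, Trim39 and Trim37, testing with no filter those of Trim12c, Trim39, Trim65 and Trim37, and a fit without the variance trend those of all called members but Trim34a and Trim56.

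Of the 10 tested interferon-induced members, 5 fell, 0 rose and 10 had a log2 fold change below 0, with a median of -0.68. Of the 29 tested others, 2 fell, 1 rose and 20 lay below 0, with a median of -0.14. Of all genes tested, 53.1% lay below 0 and the median was -0.03. Over all members on the array, dim ones included, the medians were -0.48 for the 13 and -0.10 for the 45. Among members above the filter on all 5 arrays they were -0.63 for 9 and -0.10 for 20. Array by array, the median of the 10 tested interferon-induced members lay 0.63, 0.58 and 0.64 below their naive mean on the log2 scale in activated replicates 1 to 3. The corresponding values for the other 29 were 0.17, 0.05 and 0.13 below. No test was made over the lists, whose members were chosen and not sampled.

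**Figure D1:**
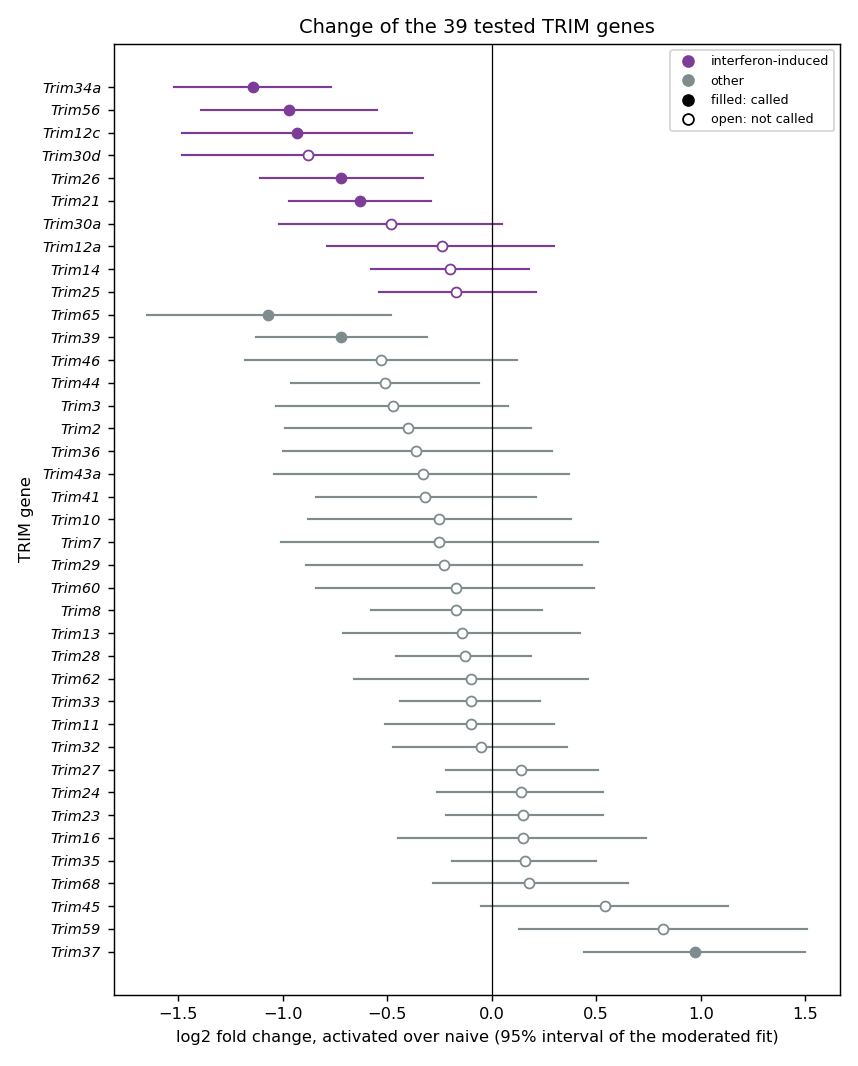
Log2 fold change of activated over naive cells (x axis, scale of log2(intensity + 16)) for the 39 tested TRIM genes (y axis), with the 95% interval of the moderated fit as a line; purple marks the 10 interferon-induced members, grey the 29 others, and filled points are called. All 10 purple points lie left of 0, from -1.14 for Trim34a to -0.17 for Trim25, while the grey points run from -1.07 for Trim65 to 0.97 for Trim37.

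Trim34a, a relative of the retroviral restriction factor TRIM5α, fell. Its activated intensities were 132.3, 141.8 and 162.3, against naive intensities of 357.2 and 323.4. All activated values lay far below both naive values. The mean of 145.5 ± 15.3 (SD, n = 3) against 340.3 ± 23.9 (SD, n = 2) gave a log2 fold change of -1.14 ± 0.17 (SE; limma adjusted p = 0.00171). This gene was called in each of the 20 alternatives run, with values from -1.22 to -0.73, the last with its probe sets averaged. Its dimmer probe set, with 14.8, 25.9 and 22.2 against 28 and 30.9, lay at -0.31 and was not called (adjusted p = 0.497 in limma over all probe sets). Within the bioC sides the differences of the brighter probe set were -1.29 and -0.93.

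Trim12c, another gene of that cluster, had activated values of 328, 422 and 613.4 against naive values of 723.4 and 1003. The groups did not overlap, but both spread widely. It fell by 0.93 ± 0.25 (SE; limma adjusted p = 0.0392), with -0.93 and -0.70 within the bioC sides. Leaving out activated replicates 1 and 2 or either naive replicate, one array at a time, ended the call, at -0.73, -0.90, -1.16 and -0.70. Averaging its probe sets also ended it, at -0.41, and the dimmer probe set lay on the other side of 0, at 0.12. When tested among all probe sets, the brighter one had an adjusted p of 0.0510. Trim12a, its near copy, was dim, at 31.5, 23.8 and 37 against 48.3 and 31.1, with overlapping groups and a log2 fold change of -0.24 and a 95% interval from -0.79 to 0.30. Trim5 and Trim6, also of the cluster, were below the filter on every array, at 7.6 or less.

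Trim30a, which dampens NF-κB signalling in mouse cells, was read by a pair of tested probe sets that gave different calls. The brighter one had activated values of 1657.6, 1585.1 and 990.1 against naive values of 2270.6 and 1640.2. Activated replicate 1 lay just above naive replicate 2, so the groups overlapped. Its log2 fold change was -0.48 ± 0.24 (SE; limma adjusted p = 0.252), with a 95% interval from -1.02 to 0.05, and it passed with the bioC control as a covariate, at -0.53, and with the bioC split as a block, at -0.58. The dimmer probe set had 468.3, 542.7 and 514.3 against 1066 and 1095.5. Here the 3 activated values sat close together and far below the naive pair. It fell by 1.07 ± 0.16 (SE; adjusted p = 0.00250 in limma over all 23698 probe sets tested). That call held with each array left out in turn, from -1.11 to -1.01, and the differences within the bioC sides were -1.06 and -1.07. With its probe sets averaged, Trim30a lay at -0.78 and was called (limma adjusted p = 0.0142). Both Trim30a probe sets carry a suffix for transcripts of 1 gene.

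Trim30d was dim, with activated values of 22.3, 7.9 and 14.3 against naive values of 43.1 and 36.6. Its groups did not overlap, and activated replicate 2 was below the filter. The log2 fold change was -0.88 ± 0.27 (SE; limma adjusted p = 0.0665). It passed without activated replicate 1, at -1.05 (limma adjusted p = 0.0466). Its other probe set, with 4.2, 2.6 and 9.3 against 36.6 and 17.1, was above the filter on the naive arrays alone, so a difference there was a condition of its being tested; its value of -0.98, and the call at -0.93 with the probe sets averaged, support nothing further.

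The sensor-pathway ligases of the list were divided. Trim56, which acts in signalling by nucleic acid sensors, had activated values of 326.7, 282.3 and 360.1 against naive values of 545.1 and 763.8. The activated arrays agreed more closely than the naive pair, and the groups were apart. It fell by 0.97 ± 0.19 (SE; limma adjusted p = 0.00839), with -0.81 and -1.05 within the bioC sides. Leaving out replicate 2 of either group, one array at a time, ended the call, at -0.88 (activated) and -0.73 (naive). Trim25, the ligase that ubiquitinates the RNA sensor RIG-I, had 536, 666 and 510.5 against 652.4 and 624.1. Its groups overlapped, with activated replicate 2 the highest of the 5 arrays. The log2 fold change of Trim25 was -0.17, with a 95% interval from -0.54 to 0.21 (limma adjusted p = 0.604), and its other tested probe sets lay at -0.30 and 0.26.

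Trim14, a member without a RING finger that serves as an adaptor of antiviral signalling at mitochondria, had 232, 257.3 and 256.8 against 326.8 and 252.8. Only naive replicate 1 stood above the other arrays. Its log2 fold change was -0.20, with an interval from -0.58 to 0.18 (limma adjusted p = 0.536), and -0.40 and 0.02 within the bioC sides. The dimmer Trim14 probe set had 12.1, 14.7 and 17.1 against 23.2 and 22.2, without overlap of the groups. It lay at -0.34 and was not called (adjusted p = 0.442 in limma over all probe sets), with -0.42 and -0.21 within the bioC sides.

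Trim21, a cytosolic antibody receptor and ubiquitin ligase, had activated values of 401.3, 460.9 and 423.1 against naive values of 701.6 and 642.4. Replicates were close in both groups and the groups were apart. It fell by 0.63 ± 0.15 (SE; limma adjusted p = 0.0265). The change was similar within the bioC sides, at -0.69 and -0.58, and with any array left out, from -0.69 to -0.57, but the call was lost in each of those 5 fits (limma adjusted p from 0.0517 to 0.135). Its second probe set, at -0.33, was not called.

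Trim26, a ubiquitin ligase encoded beside the major histocompatibility genes, had 207.7, 253.8 and 255.7 against 362 and 447.9. It fell by 0.72 ± 0.18 (SE; limma adjusted p = 0.0258), with no overlap of the groups and with -0.62 and -0.77 within the bioC sides. The call ended on omission of activated replicates 1 and 2 and of naive replicate 2, each alone, at -0.63, -0.76 and -0.57, and with its probe sets averaged, at -0.25. The second Trim26 probe set, at 95.5, 65.9 and 91.5 against 85.5 and 54.9, pointed the other way at 0.23 and was not called. Trim69, the last of the list, was below the filter on every array, at 7.1 or less.

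**Figure D2:**
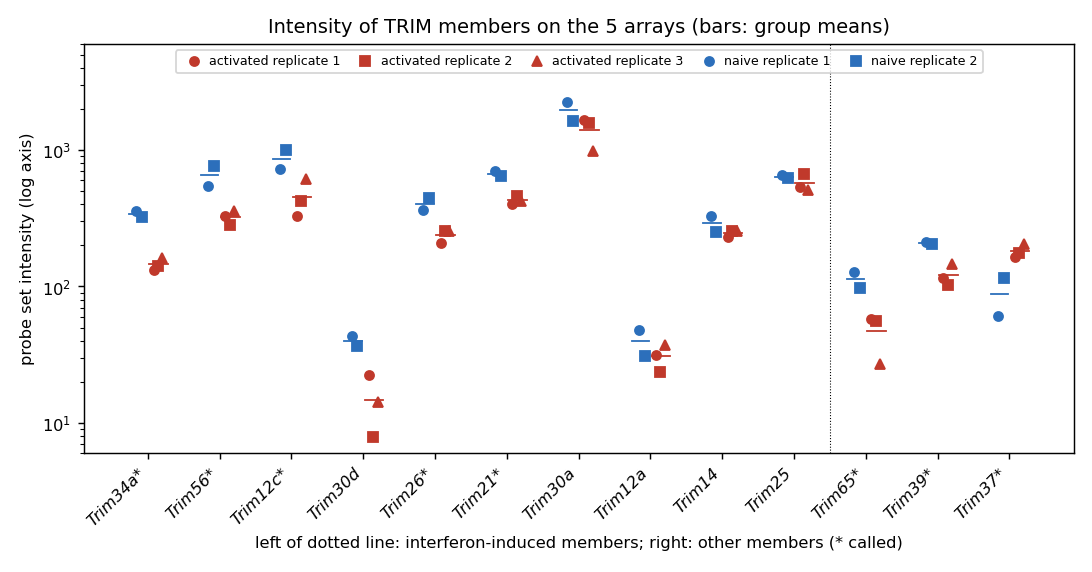
Probe set intensity (log axis) of the 10 tested interferon-induced TRIM genes, left of the dotted line, and of the 3 called other members, right of it, on each of the 5 arrays; red marks are activated replicates, blue marks naive replicates, short bars group means, and an asterisk a called gene. For Trim34a the activated arrays lie between 132.3 and 162.3 and the naive arrays at 323.4 and 357.2, whereas the groups of Trim30a, Trim12a, Trim14 and Trim25 overlap.

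Trim65, a ligase of the RNA sensor MDA5, and Trim39, which lies on chromosome 17 near Trim26, fell although neither is on the interferon-induced list. Trim65 had activated values of 57.4, 55.8 and 27.2 against naive values of 128.2 and 97.2. Activated replicate 3 was the lowest of these. It fell by 1.07 ± 0.26 (SE; limma adjusted p = 0.0282), with -0.99 and -1.39 within the bioC sides. Omitting activated replicates 2 and 3 or either naive array, each alone, ended it, at -1.18, -0.82, -0.89 and -1.24. Trim39 had 115.7, 103.4 and 145.1 against 211 and 205.8. The naive pair was tight and the groups were apart. It fell by 0.72 ± 0.19 (SE; limma adjusted p = 0.0340), with -0.86 and -0.46 within the bioC sides. This call ended on omission of activated replicates 1 and 2 or of either naive array, each alone, at -0.69, -0.62, -0.70 and -0.74. Of the 6 members on chromosome 17, Trim26 and Trim39 fell, Trim10 was tested and not called, and Trim15, Trim31 and Trim40 were below the filter on every array.

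Trim37 rose. This ligase of the MATH class limits the growth of centrosomes and is mutated in the human disorder mulibrey nanism. Its brightest probe set had activated values of 164.6, 175.5 and 206.5 against naive values of 60.4 and 116.3. The naive values differed more from each other than the activated ones did, and the groups were apart. The log2 fold change was 0.97 ± 0.24 (SE; limma adjusted p = 0.0267), with 1.28 and 0.75 within the bioC sides. The call ended on omission of activated replicates 2 and 3 and of naive replicate 1, each alone, at 1.0, 0.89 and 0.58, while without naive replicate 2 the change was 1.37.

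A second Trim37 probe set gave 79.9, 92.8 and 92.8 against 30.6 and 38.2. These groups were tighter than those of the first. It rose by 1.05 ± 0.20 (SE; adjusted p = 0.0102 in limma over all probe sets), a call that was lost without activated replicate 2, at 1.02 (adjusted p = 0.0567 in limma over all probe sets). The other 3 tested probe sets of Trim37 lay at 0.75, 0.48 and -0.29 and were not called, and with its probe sets averaged the gene lay at 0.59 and was called.

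Trim59, a membrane-anchored member, had activated values of 460.8, 639.3 and 1070.5 against naive values of 301.8 and 473.3 on its brightest probe set. Activated replicate 1 lay just below naive replicate 2. The log2 fold change of 0.82 ± 0.31 (SE; limma adjusted p = 0.132) did not pass. It passed without activated replicate 1, at 1.10, with averaged probe sets, at 1.27, and with the bioC control as a covariate or the bioC split as a block, at 0.88 and 0.96. Its other probe set, which carries a suffix for sequence shared between transcripts, had 126.8, 125.6 and 284.2 against 52.8 and 29.1. Activated replicate 3 was again the highest. This probe set rose by 1.71 ± 0.34 (SE; adjusted p = 0.0117 in limma over all probe sets), with 1.05 and 2.73 within the bioC sides; omitting naive replicate 2 ended its call, at 1.41.

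**Figure D3:**
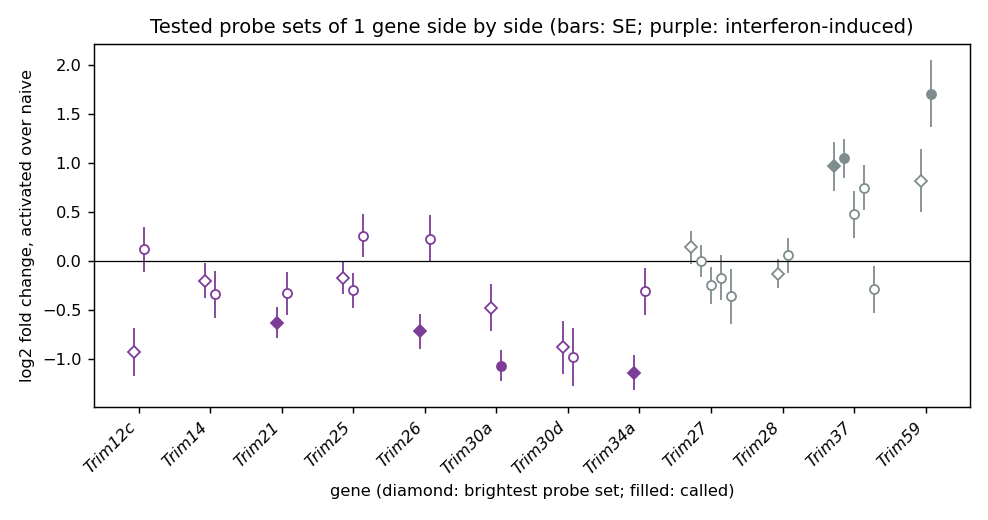
Log2 fold change of activated over naive cells with its SE (y axis) for every tested probe set of 12 named TRIM genes with more than 1 (x axis), from the fit on all probe sets; diamonds are the brightest probe set of a gene, filled marks are called in that fit, purple marks interferon-induced members. Trim30a and Trim59 are called on the dimmer probe set, at -1.07 and 1.71, and Trim12c and Trim26 have probe sets on both sides of 0.

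Of 73 member probe sets that could be tested, 7 fell and 3 rose, where 3.07% of all tested probe sets fell and 5.58% rose (8.65% in either direction). The 7 were those of Trim21, Trim26, Trim34a, Trim56, Trim39 and Trim65 and the dimmer one of Trim30a. The 3 were a pair for Trim37 and 1 for Trim59. Of 19 interferon-induced probe sets, 16 lay below 0 and 5 fell, and 1 of the 16, the dimmer of Trim30d, was above the filter in naive cells alone; of 54 others, 31 lay below 0, 2 fell and 3 rose. Among 22 genes with more than 1 tested probe set, 13 had probe sets on both sides of 0.

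The chromatin class did not pass in either direction. Trim28, the corepressor of KRAB zinc finger proteins, had activated values of 1038.2, 1097 and 1064.7 against naive values of 1170.1 and 1169.3. The activated arrays were all slightly lower. The difference was -0.13, with a 95% interval from -0.46 to 0.19 (limma adjusted p = 0.643), and the other probe set lay at 0.06. Trim24 and Trim33, its relatives with a PHD finger and a bromodomain, had log2 fold changes of 0.14 and -0.10 (limma adjusted p = 0.699 and 0.738). Their other tested probe sets, at -0.45 and 0.19 for Trim24 and at -0.12 for Trim33, were not called. Trim66 was below the filter on every array.

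Trim27, a nuclear ligase also known as Ret finger protein, had 1056, 1113.6 and 889.2 against 989 and 850. The groups overlapped. The difference was 0.14, with an interval from -0.22 to 0.51 (limma adjusted p = 0.657); the sign turned with averaged probe sets, at -0.09, and on probe sets without a suffix for shared sequence, at -0.17. Its 5 tested probe sets lay between -0.36 and 0.14.

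Trim45, a member with a filamin domain, had 38, 54.2 and 59.8 against 20 and 41.2. Activated replicate 1 fell short of naive replicate 2, and the log2 fold change of 0.54 did not pass (limma adjusted p = 0.247). Trim44, which lacks a RING finger, lay at -0.51 (limma adjusted p = 0.153) with an interval from -0.96 to -0.06, and its other probe sets at 0.60 and 0.55. Trim23, with an ARF domain, lay at 0.15. In the NHL class, known from neurons and stem cells, Trim2, Trim3 and Trim32 were tested and not called, from -0.47 to -0.05, and Trim71 was below the filter on every array. The remaining tested members, among them Trim8, Trim11, Trim35 and Trim41, lay between -0.53 and 0.18.

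In all, 19 TRIM genes were not tested, and 16 of them were below the filter on every array. Among the 19 were the muscle ring finger genes Trim54 and Trim63 and Trim72, which acts in muscle membrane repair. Trim9 and Trim67, known from neurons, were there as well. The highest intensity in this group was 21.5, for Trim80 on activated replicate 3, so no level can be given for them. Groups did not overlap for 17 of the 39 tested genes, where 41.0% of all tested genes had no overlap; activated values were below naive for 6 of 10 interferon-induced members and for 8 of 29 others, and above for 0 and 3.

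Relatives of the family with another name were not called. Pml, the organiser of nuclear bodies and itself induced by interferon, had 241.5, 192.9 and 149.7 against 282.9 and 352. Its groups did not overlap, and the log2 fold change was -0.68 (limma adjusted p = 0.0713). Mid1, a microtubule-associated ligase, lay at -0.38 (limma adjusted p = 0.287), Mid2 at 0.08 (limma adjusted p = 0.900) and Mefv, the pyrin gene, at 0.03 (limma adjusted p = 0.969). Bspry was not tested.

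Most interferon-induced genes of a list outside the family fell. Of 23 tested, 19 fell and 0 rose, with a median log2 fold change of -1.21; the median of the 10 tested interferon-induced TRIM members was -0.68, and the difference between the lists was not tested. Oas2, an oligoadenylate synthetase, fell by 2.83 (limma adjusted p = 7.9e-06) and Ifit1, which binds viral RNA, by 2.62 (limma adjusted p = 7.5e-05). Among 28 tested genes of nucleic acid sensing and interferon signalling, where TRIM ligases act, 8 fell and 1 rose, with a median of -0.35. For both lists the background is all tested genes, of which 4.14% fell and 6.37% rose, with a median of -0.03. Irf7, the interferon regulatory factor of the amplification loop, fell by 1.56 (limma adjusted p = 0.00319), and Usp18, the protease that removes ISG15, fell by 1.55 (limma adjusted p = 3.6e-04). The kinase Map3k7, also called TAK1, rose by 0.95 (limma adjusted p = 0.0198). That interferon-response genes were lower was known from these data when the lists were made, so these counts are a description.

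**Figure D4:**
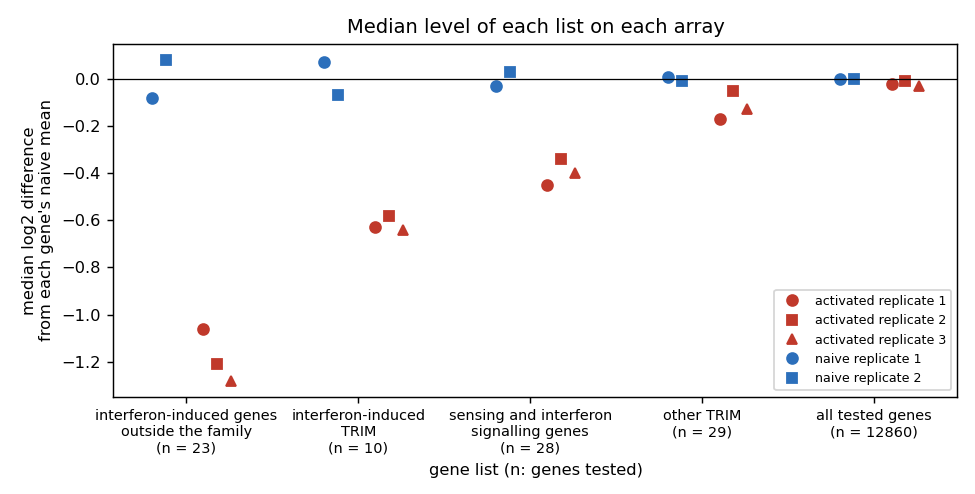
Median log2 difference from each gene's naive mean (y axis, log2(intensity + 16)) on each array for 5 gene lists (x axis, with the number of tested genes); red marks are activated replicates and blue marks naive replicates. The activated replicates lie between -1.28 and -1.06 for interferon-induced genes outside the family, between -0.64 and -0.58 for interferon-induced TRIM genes and between -0.17 and -0.05 for the other TRIM genes, with all tested genes within 0.03 of 0.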

How the data were processed

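RNA of 5 samples was read on Affymetrix arrays; per the labels' protocols, Trizol-extracted total RNA (6 µg) was made into biotin-labelled cRNA. The authors deposited 1 linear intensity per probe set and array. How probes were summarised is not given in the sources used here. On each array the 2% trimmed mean was 100, which a global scaling would leave, so changes are relative to the average probe set. Of 45101 probe sets, 34945 had 1 symbol, 932 several and 9160 none, and 64 were controls. All 58 member genes matched RefSeq (GRCm38.p6) by Entrez ID, used for names; promoters are RefSeq's of that build.

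Array medians of log2(intensity + 16) lay between 5.07 and 5.24, so no quantile step was applied. The model was limma 3.58.1 (R 4.3.3), lmFit with the group as term and eBayes with an intensity trend, two-sided. The code was tested on simulated data. Any 2 arrays held equal values in at most 0.947% of probe sets. Correlations across genes, which are not independent replicates, were 0.970 to 0.977 within and 0.929 to 0.944 between groups.

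The members and lists were chosen with earlier results of these data known. Values are given for every interferon-induced member, every called member, the 5 brightest and the 3 most changed tested members that were not called, the named relatives, and the 2 largest called rises and falls of the interferon and mitosis lists; other names illustrate classes. Alternatives changed the scaling (quantile normalization, or centring on the median), the filter (none, the 60th percentile, or the mean over arrays), the pseudocount (1 or 64), the summary of probe sets (averaged, unsuffixed, or each tested), the variance model (without trend, robust, or weighted by array), the covariates (replicate number, bioC level or bioC side), the interferon list (narrower) and the arrays (each left out). The fits with arrays left out for all probe sets were added after seeing the data.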

Additional observations from a re-analysis of the deposited data

How the results depend on the processing

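The 7 falls and 1 rise among TRIM genes depended on the settings. The falls became 3 with median centring, 4 with no filter and 2 without the variance trend, and the rise became 0 with each of these. The number that rose was 2 with averaged probe sets, with the bioC control as a covariate, with the bioC split as a block and with all probe sets tested. Of the 5 interferon-induced falls, 2 were left with median centring, 2 without the trend and 3 on the narrow list. On unsuffixed probe sets 3 were left, because Trim26 and Trim56 were not in that fit. Their probe sets all carry the suffix for transcripts of 1 gene. With each array left out in turn, TRIM rises ranged from 0 to 2, falls from 1 to 5 and interferon-induced falls from 1 to 4.

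The median log2 change of all 13 interferon-induced members on the array, -0.48, was -0.27 with averaged probe sets, -0.36 on the narrow list and -0.59 to -0.25 with an array left out. Without suffixed probe sets it was -0.24, but Trim25, Trim26, Trim30a and Trim56 have only suffixed probe sets and dropped out. The values of the members that remained did not change. The median of the 45 others, -0.10, was -0.15 with a pseudocount of 1, -0.04 with 64, -0.04 with averaged probe sets and -0.14 to -0.01 with an array left out. Trim27 turned to -0.09 with averaged probe sets and to -0.17 without suffixed ones. The cause of the other shifts was not tested. Of 334 alternative values for 17 tested named genes, 280 kept their direction and side of the threshold, 43 lost and 9 gained a call, and 2 turned sign, those of Trim27. Only genes called in the main fit could lose a call, so the 43 are all theirs. Among them, Trim12c and Trim21 stayed called in 12 of 20 alternatives and Trim34a in 20 of 20. Of 60 alternative values for the untested Trim5, Trim6 and Trim69, 4 turned sign, all of Trim5 and Trim6, which lie below the filter.

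The labels do not say that replicate numbers pair the samples, and deviations correlated at 0.17 for number 1 and -0.13 for number 2, while activated replicate 3 and naive replicate 2, the low bioC side, correlated at 0.31. Number 3 occurs only in the activated group, so a block on the replicate number takes activated replicate 3 out of the contrast. The changes of tested genes then equal those without that array, and the interferon-induced median was -0.34 in both. With the block, 8 TRIM genes fell and 1 rose, and over all genes 974 rose and 793 fell, against 819 and 533 in the main fit. The bioC covariate gave 1165 and 950. Without naive replicate 2, 463 rose and 185 fell, so 71.5% of calls were rises against 60.6%. The 5 arrays and pooled mice limit the precision, and 19 dim members have no usable level.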
